A study of Mus musculus with 14 samples.

Results

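The 37 genes described here are Trp53, the mouse gene of the transcription factor p53, its inhibitor Mdm4 and named genes that p53 is known to switch on in mouse or human cells. The set is called the p53 target genes below. They were taken from a fixed list of names, and each was read from the brightest array probe that carries its name. The list was chosen with earlier results of these data known, so it cannot be taken as independent of them. All 37 were found among the 21316 genes measured well enough to test. Gene expression was measured on Agilent 1-colour arrays in mSCC-38, a mouse cell line isolated from a skin squamous cell carcinoma that had been induced chemically with DMBA and TPA. Cells received the siRNA Si1AK (4 arrays) or Si2AK (3 arrays), both named for the transcript AK144841, or a control siRNA (SiC, 3 arrays), all with RNAimax and for 72 h. The titles of the control siRNA samples differ, with SiC for replicate 1 and NC for replicates 2 and 3, while their treatment label is the same, and they were taken as 1 group. Cells of the remaining group were not transfected (NT, 4 arrays), and no time is given for it. All groups shared the same line and culture medium, and each array took 0.2 µg of RNA with an integrity number of 9. The line is a single tumour line, its Trp53 genotype is not given in the sources used here, and AK144841 itself was not analysed here, so the knockdown goes unchecked. The labels do not tell whether replicates came from separate cultures. The p-values then reflect only the spread among these arrays, which may be technical.

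p53 is kept low in unstressed cells by the ubiquitin ligase Mdm2 and its relative Mdm4. DNA damage and other stresses release p53, which binds DNA as a tetramer and raises genes that halt the cell cycle, repair DNA, alter metabolism or kill the cell. Several of these products, among them Mdm2, Ccng1 and the phosphatase Ppm1d, act back to lower p53 activity. In skin carcinomas induced with DMBA and TPA, Trp53 is often mutated late in progression.

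The p53 binding motif is a pair of decamers, and these stretches upstream of target genes are shown to let its match be seen both in genes called in a comparison below and in Bax and Sesn1, which were called in none. RefSeq's promoter table (GRCm38.p6) held 42 windows for 29 of the 37 genes, each from 250 bases before to 50 after a transcription start. The p53 decamer consensus, which reads the same on both strands, was matched in 13 of 42 windows (31.0%), beside 8.36% of the 32851 windows of all genes. These matches lay in 12 genes, the 7 printed below and Ei24, Trp53, Ppm1d, Aen and Rps27l, of which Aen and Rps27l were called in no comparison. The full motif, 2 decamers at most 13 bases apart, was matched in 1 window of the 37 genes, that of Cdkn1a, and in 0.0731% of all windows. In Cdkn1a it runs from position -73 to -42 relative to the transcription start of that window, with 12 bases between the decamers. That start was not matched to the Cdkn1a probes whose levels are given below. Decamers with a mismatch were not searched for. The stretches below lie at chr17:29090876-29090967 (plus strand) for Cdkn1a, chr10:117710905-117710974 (minus strand) for Mdm2, chr11:40755432-40755501 (minus strand) for Ccng1, chr13:96519379-96519437 (minus strand) for Polk, chr6:67037408-67037477 (minus strand) for Gadd45a, chr7:45467060-45467129 (minus strand) for Bax and chr10:41887236-41887305 (plus strand) for Sesn1, with the matched decamers in capitals.
Cdkn1a: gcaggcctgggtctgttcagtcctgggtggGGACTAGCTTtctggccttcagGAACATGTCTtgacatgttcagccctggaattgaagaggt
Mdm2: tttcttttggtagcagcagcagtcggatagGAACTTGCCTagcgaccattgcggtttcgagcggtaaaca
Ccng1: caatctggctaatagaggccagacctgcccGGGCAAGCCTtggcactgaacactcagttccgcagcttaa
Polk: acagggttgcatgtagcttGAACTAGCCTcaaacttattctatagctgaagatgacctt
Gadd45a: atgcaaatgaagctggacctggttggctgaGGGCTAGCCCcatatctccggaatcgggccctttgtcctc
Bax: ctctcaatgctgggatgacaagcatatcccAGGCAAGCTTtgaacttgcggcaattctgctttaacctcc
Sesn1: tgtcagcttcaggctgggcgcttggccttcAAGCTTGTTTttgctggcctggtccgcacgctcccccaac
A match is a sequence description and not a binding site measured in these cells.

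Levels below are log2 of the processed signal minus the 75th percentile of the same array, so a level of 1 is a signal at 2 times that percentile, and levels are compared only within a gene. A difference is that of 2 group means with its standard error (SE) from limma, fitted over all 14 arrays. A gene is called higher or lower at a Benjamini-Hochberg adjusted p below 0.05 over all genes. The median signal was 270.9 on SiC replicate 1 and 107.5 on Si2AK replicate 2, beside 23.5 to 58.7 on the other 12 arrays. On those arrays 90.5% and 84.8% of probes were well above background, beside 51.7% to 59.4% on the others. Results are therefore also given without these raised arrays for many of the 37 genes. For genes outside the list only the number called over all genes is given in this way. The arrays lay on 2 slides of 7. The 1 SiC array on slide 1 is the raised replicate 1, and slide 2 holds 1 Si2AK array. Of the 37 probes, 36 were well above background on all 14 arrays and that of Rrm2b on 13. The keratinocyte markers Krt5, Krt14, Krt18, Epcam and Trp63 were well above background on all 14 arrays, Krt8 on 13 and Cdh1 on 2. Markers of other cell types were also above it on all 14 arrays, 3 of 5 for fibroblasts (among them Col1a1 and Pdgfra), 3 of 5 for leukocytes (among them Itgam), 3 of 4 for endothelium (among them Kdr) and 2 of 4 for melanocytes (among them Mlana). Ptprc, Tek, Lum and Dct were above it on 3, 2, 2 and 2 arrays. The summed keratinocyte markers lay at 9.21 to 9.37 in Si1AK, 9.53 to 9.58 in Si2AK, 9.19 to 9.51 in SiC and 9.54 to 9.81 in NT on the log2 scale. The summed fibroblast markers lay at 0.04 to 0.56 in Si1AK, 0.60 to 0.83 in Si2AK, -0.07 to 0.42 in SiC and -0.43 to -0.01 in NT. With Si1AK the means of Col1a1 and Dcn were higher than in SiC, and those of Col1a2, Pdgfra and Lum were lower. The summed leukocyte markers lay at 3.74 to 3.92 in Si1AK, 3.37 to 3.50 in Si2AK, 3.39 to 3.94 in SiC and 3.56 to 3.90 in NT. The part of any of these sums in the results was not tested. In bulk RNA, fewer cells of a type and less RNA per cell cannot be told apart.

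More p53 target genes were called higher than lower with each siRNA, though most were not called. With Si1AK against SiC, 14 of 37 genes were called higher and 1 lower, where 3.18% of all genes were called higher and 1.23% lower (4.41% in either direction). The median difference of the 37 genes was 0.48, and that of all genes was -0.06. With Si2AK against SiC, 8 were called higher and 1 lower, where 8.52% of all genes were called higher and 4.69% lower (13.2% in either direction), and the median difference was 0.16 beside -0.02 for all genes. Both comparisons use the same 3 SiC arrays. Without both raised arrays 14 genes were called with Si1AK, 12 of them among the 15 above, with a median difference of 0.33, and 6 with Si2AK, all among the 9 above. Of all 21316 genes, 988 were called with Si1AK and 2109 with Si2AK in that fit. Against SiC within slide 1 and within slide 2 the median difference was 0.71 and 0.32 for Si1AK and 0.33 and 0.17 for Si2AK, where slide 1 rests on the raised SiC replicate 1 alone. With the slide as a block, all calls against SiC were kept, and Plk3, Ddb2 and Pmaip1 were called in addition with Si1AK and Dcxr, Psrc1 and Pmaip1 with Si2AK.

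**Figure D1:**
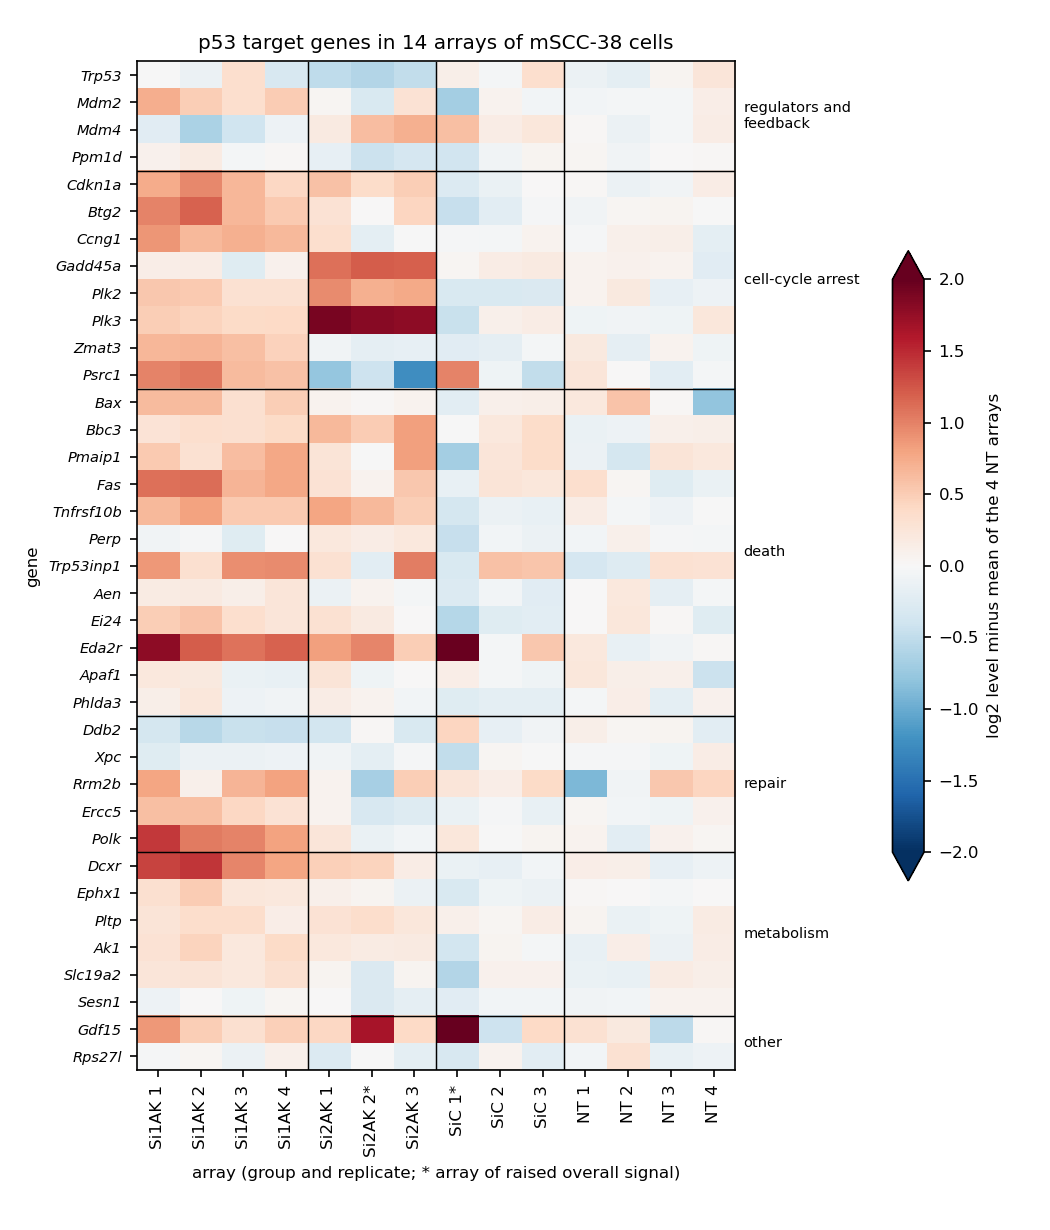
Heat map of the 37 p53 target genes (rows, grouped by role) on the 14 arrays (columns, by group and replicate), coloured by log2 level minus the mean of the 4 NT arrays, with colours ending at 2 above and below. Asterisks mark the arrays of raised signal. Columns of Si1AK show the warm colours of Btg2, Fas, Polk and Dcxr on all 4 arrays, and columns of Si2AK show those of Gadd45a, Plk2 and Plk3 on all 3.

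Every Si1AK array lay above every SiC and NT array in 16 of 37 genes, where 6.05% of all genes did so, and below them in 1, Ddb2, where 3.88% did. Every Si2AK array lay above all 7 control arrays in 10 genes (10.9% of all genes) and below them in 1, Trp53 (6.44%).

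Among the 4 regulators of p53, 1 was called higher and 1 lower with Si1AK, and 1 was called lower with Si2AK, against SiC. Trp53 was lower with Si2AK than in either control. Its level was 0.56, 0.45, 0.89 and 0.24 on the Si1AK arrays, 0.06, -0.02 and 0.07 on the Si2AK arrays, 0.67, 0.52 and 0.90 on the SiC arrays and 0.45, 0.36, 0.62 and 0.80 on the NT arrays. All Si2AK arrays lay below all others, and the Si1AK arrays overlapped both controls. The Si2AK difference was -0.66 ± 0.17 from SiC (limma adjusted p = 0.0216) and -0.53 ± 0.15 from NT (limma adjusted p = 0.0391), a 1.58-fold and a 1.44-fold lower signal. Without both raised arrays the difference from SiC was -0.64 (adjusted p = 0.0924), and that from NT was -0.50 (adjusted p = 0.0925). The call against SiC was also lost without Si2AK replicate 1, 2 or 3 or SiC replicate 3, with differences between -0.75 and -0.56. For Si1AK the difference from SiC was -0.16 ± 0.15 (adjusted p = 0.564), and Si2AK against Si1AK gave -0.50 ± 0.15 (adjusted p = 0.0571, and 0.0291 without Si1AK replicate 4).

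Mdm2, the ligase that marks p53 for degradation and is itself its target, was at 5.68, 5.45, 5.30 and 5.47 on the Si1AK arrays and 4.99, 4.65 and 5.24 on the Si2AK arrays, against 4.28, 5.03 and 4.91 on the SiC arrays and 4.90, 4.92, 4.92 and 5.09 on the NT arrays. The Si1AK arrays lay above all others, and SiC replicate 1 lay lowest. The Si1AK difference from SiC was 0.74 ± 0.18, or 1.67-fold (limma adjusted p = 0.0432), and 0.51 without SiC replicate 1 (adjusted p = 0.102). Without both raised arrays it was also 0.51 (limma adjusted p = 0.0381). The Mdm2 call was lost when any single array other than Si2AK replicate 2, Si2AK replicate 3 or SiC replicate 2 was left out, with differences between 0.51 and 0.88. Against NT the difference was 0.52 ± 0.17 (adjusted p = 0.0949, and 0.0218 without SiC replicate 1). With Si2AK Mdm2 differed from SiC by 0.22 ± 0.19 (adjusted p = 0.568), and by -0.01 without SiC replicate 1.

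Mdm4, which binds p53 and blocks its activity, was at -2.68, -3.08, -2.85 and -2.55 on the Si1AK arrays and -2.27, -1.83 and -1.74 on the Si2AK arrays, against -1.84, -2.30 and -2.22 on the SiC arrays and -2.43, -2.56, -2.49 and -2.30 on the NT arrays. The Si1AK arrays lay below all Si2AK and SiC arrays and overlapped NT. Its Si1AK difference from SiC was -0.67 ± 0.16 (limma adjusted p = 0.0414), but 0.17 under quantile normalization and 0.03 in the authors' deposited table, so its direction depends on the scaling. That call was lost with any single array left out other than Si1AK replicate 4, Si2AK replicate 1 or Si2AK replicate 3, and without SiC replicate 1 the difference was -0.53 (adjusted p = 0.124). Si2AK against Si1AK gave 0.85 ± 0.16 (adjusted p = 0.00547), and this call was lost under quantile normalization and in the authors' table. A second Mdm4 probe gave -0.31 ± 0.25 for Si1AK against SiC.

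Ppm1d, the phosphatase Wip1 that switches off the damage response, was at 0.06, 0.14, -0.06 and 0.00 on the Si1AK arrays and -0.18, -0.45 and -0.35 on the Si2AK arrays, against -0.40, -0.09 and 0.04 on the SiC arrays and 0.01, -0.09, -0.01 and 0.00 on the NT arrays. Si2AK arrays lay below all Si1AK and NT arrays, and SiC overlapped both siRNAs. Neither siRNA was called against SiC, with differences of 0.19 ± 0.11 for Si1AK (adjusted p = 0.358) and -0.18 ± 0.11 for Si2AK (adjusted p = 0.387), and of 0.06 and -0.30 without SiC replicate 1. Between the siRNAs the difference, Si2AK against Si1AK, was -0.36 ± 0.11 (limma adjusted p = 0.0435). Leaving out any single array other than Si2AK replicate 1, SiC replicate 1 or SiC replicate 3 ended that call, with values between -0.44 and -0.30.

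Of the 8 cell-cycle arrest genes, 5 were called higher with Si1AK (Cdkn1a, Btg2, Ccng1, Plk2 and Zmat3) and 4 with Si2AK (Cdkn1a, Plk2, Plk3 and Gadd45a) against SiC, and none lower. Cdkn1a encodes p21, the inhibitor of cyclin-dependent kinases that carries out p53's arrest. Its level was 4.6, 4.81, 4.52 and 4.26 on the Si1AK arrays and 4.43, 4.21 and 4.34 on the Si2AK arrays, against 3.58, 3.72 and 3.86 on the SiC arrays and 3.88, 3.74, 3.78 and 4.0 on the NT arrays. Every siRNA array lay above every control array. Its difference from SiC was 0.83 ± 0.13 for Si1AK, or 1.78-fold (limma adjusted p = 0.00387), and 0.61 ± 0.14 for Si2AK, or 1.52-fold (limma adjusted p = 0.0122). Without both raised arrays these were 0.76 and 0.59 (adjusted p = 0.016 and 0.0455). From NT the differences were 0.70 ± 0.12 and 0.48 ± 0.13 (adjusted p = 0.0045 and 0.0242). The Si2AK call against SiC was lost without Si2AK replicate 1 and with the probes of the gene averaged, where the difference was 0.24. The Si2AK call against NT was lost in 9 of 28 alternative fits, among them those without Si2AK replicate 1 or 3 or NT replicate 2 or 3, with the replicate number as a block (0.46) and with averaged probes (0.36). The difference of Si2AK against Si1AK was -0.22 ± 0.13 (adjusted p = 0.338), but -0.74 with averaged probes (adjusted p = 0.0362), and the arrays of the siRNAs overlapped. This probe lies on chromosome 17 at 29237377 to 29237436 of mm9, and Cdkn1a has other probes, described further on.

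Plk2 and Plk3, polo-like kinases that slow the cycle under stress, were higher with Si2AK. Plk3 stood at 3.25, 3.21, 3.14 and 3.16 on the Si1AK arrays and 4.66, 4.58 and 4.55 on the Si2AK arrays, against 2.32, 2.87 and 2.91 on the SiC arrays and 2.68, 2.70, 2.68 and 2.99 on the NT arrays. Si2AK arrays lay highest, Si1AK arrays between, and no group of siRNA arrays overlapped a control. The Si2AK difference from SiC was 1.89 ± 0.14, or 3.71-fold (limma adjusted p = 3.44e-05), the largest among the 37 genes in any comparison, and 1.71 without both raised arrays. For Si1AK it was 0.49 ± 0.13 (adjusted p = 0.0659), 0.51 with the slide as a block (adjusted p = 0.0442) and 0.30 without SiC replicate 1 (adjusted p = 0.121). Plk3 in Si2AK against Si1AK gave 1.41 ± 0.13 (adjusted p = 7.36e-05). Plk2 was at 2.87, 2.85, 2.63 and 2.63 on the Si1AK arrays and 3.27, 3.04 and 3.09 on the Si2AK arrays, against 2.03, 2.03 and 2.04 on the SiC arrays and 2.40, 2.53, 2.16 and 2.23 on the NT arrays. All Plk2 levels of both siRNAs exceeded those of both controls. The differences from SiC were 0.71 ± 0.11 for Si1AK (adjusted p = 0.00344) and 1.10 ± 0.11 for Si2AK (adjusted p = 0.000213). SiC arrays lay below all NT arrays in Plk2, and from NT the differences were 0.42 ± 0.10 and 0.80 ± 0.11 (adjusted p = 0.0261 and 0.000484). Si2AK against Si1AK gave 0.39 ± 0.11 for Plk2 (adjusted p = 0.0344), a call lost under quantile normalization and without Si1AK replicate 3 or 4 or any Si2AK replicate, with differences between 0.32 and 0.43.

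Gadd45a, a growth arrest and DNA damage protein, was at 1.33, 1.35, 0.96 and 1.29 on the Si1AK arrays and 2.30, 2.41 and 2.40 on the Si2AK arrays, against 1.24, 1.35 and 1.39 on the SiC arrays and 1.27, 1.29, 1.28 and 0.98 on the NT arrays. Only the Si2AK arrays stood apart. The difference from SiC was 1.04 ± 0.12 for Si2AK, or 2.06-fold (limma adjusted p = 0.000353), and -0.09 ± 0.11 for Si1AK (adjusted p = 0.65). Gadd45a in Si2AK against Si1AK gave 1.14 ± 0.11 (adjusted p = 8e-05).

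Ccng1, Btg2 and Zmat3 were higher with Si1AK than in every other group. Ccng1, cyclin G1, which directs a phosphatase to Mdm2, was at 5.45, 5.22, 5.28 and 5.21 on the Si1AK arrays and 4.90, 4.37 and 4.56 on the Si2AK arrays, against 4.55, 4.53 and 4.64 on the SiC arrays and 4.54, 4.67, 4.69 and 4.38 on the NT arrays. Si1AK arrays lay above all others, while Si2AK arrays overlapped both controls. Its differences from SiC were 0.72 ± 0.12 for Si1AK (limma adjusted p = 0.00757) and 0.03 ± 0.13 for Si2AK (adjusted p = 0.934), and Si2AK against Si1AK gave -0.68 ± 0.12 (adjusted p = 0.0037).

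Zmat3, an RNA-binding zinc finger protein, was at 3.05, 3.06, 2.98 and 2.84 on the Si1AK arrays and 2.31, 2.21 and 2.22 on the Si2AK arrays, against 2.15, 2.20 and 2.34 on the SiC arrays and 2.57, 2.21, 2.45 and 2.30 on the NT arrays. Again the Si1AK arrays alone stood above the rest. The differences from SiC were 0.75 ± 0.10 for Si1AK (limma adjusted p = 0.00157) and 0.02 ± 0.10 for Si2AK (adjusted p = 0.958), and Si2AK against Si1AK gave -0.73 ± 0.10 (adjusted p = 0.000527).

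Btg2, an antiproliferative factor, was at -0.12, 0.07, -0.45 and -0.59 on the Si1AK arrays and -0.83, -1.11 and -0.68 on the Si2AK arrays, against -1.58, -1.33 and -1.13 on the SiC arrays and -1.19, -1.08, -1.06 and -1.12 on the NT arrays. Si1AK arrays lay highest, and Si2AK arrays lay above SiC but overlapped NT. Its differences from SiC were 1.08 ± 0.16 for Si1AK, or 2.11-fold (limma adjusted p = 0.0039), and 0.47 ± 0.18 for Si2AK (adjusted p = 0.107). The difference of Si2AK against Si1AK was -0.60 ± 0.16 (adjusted p = 0.0326), but -0.48 without both raised arrays (adjusted p = 0.0806). Within slides that last difference was -0.95 on slide 1 and -0.16 on slide 2, and the call was lost without Si1AK replicate 1 or 2 or Si2AK replicate 1 or 2, with values between -0.71 and -0.48.

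Psrc1, a spindle-associated protein, showed the widest gap between the siRNAs in the main fit. It was at -2.49, -2.43, -2.85 and -2.90 on the Si1AK arrays and -4.26, -3.89 and -4.72 on the Si2AK arrays, against -2.49, -3.57 and -3.98 on the SiC arrays and -3.24, -3.48, -3.69 and -3.52 on the NT arrays. Si2AK arrays lay below and Si1AK arrays above all NT arrays, while SiC, with its replicate 1 high, overlapped both. Psrc1 in Si2AK against Si1AK gave -1.62 ± 0.31 (limma adjusted p = 0.00482), and -1.82 without both raised arrays. Over the 28 alternative fits it ran from -2.244 to -0.859, while Plk3 ran from 1.355 to 1.437. The gap of Psrc1 was thus not the widest in every fit. Against SiC neither was called, at 0.68 ± 0.31 for Si1AK (adjusted p = 0.261) and -0.94 ± 0.33 for Si2AK (adjusted p = 0.0852). Without SiC replicate 1 Psrc1 was called with Si1AK (1.11, adjusted p = 0.0265), and the Si2AK difference was -0.52 (adjusted p = 0.21). Psrc1 was called lower with Si2AK when the slide was a block (-1.14, adjusted p = 0.0057) and without SiC replicate 3 (-1.26, adjusted p = 0.0272).

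**Figure D2:**
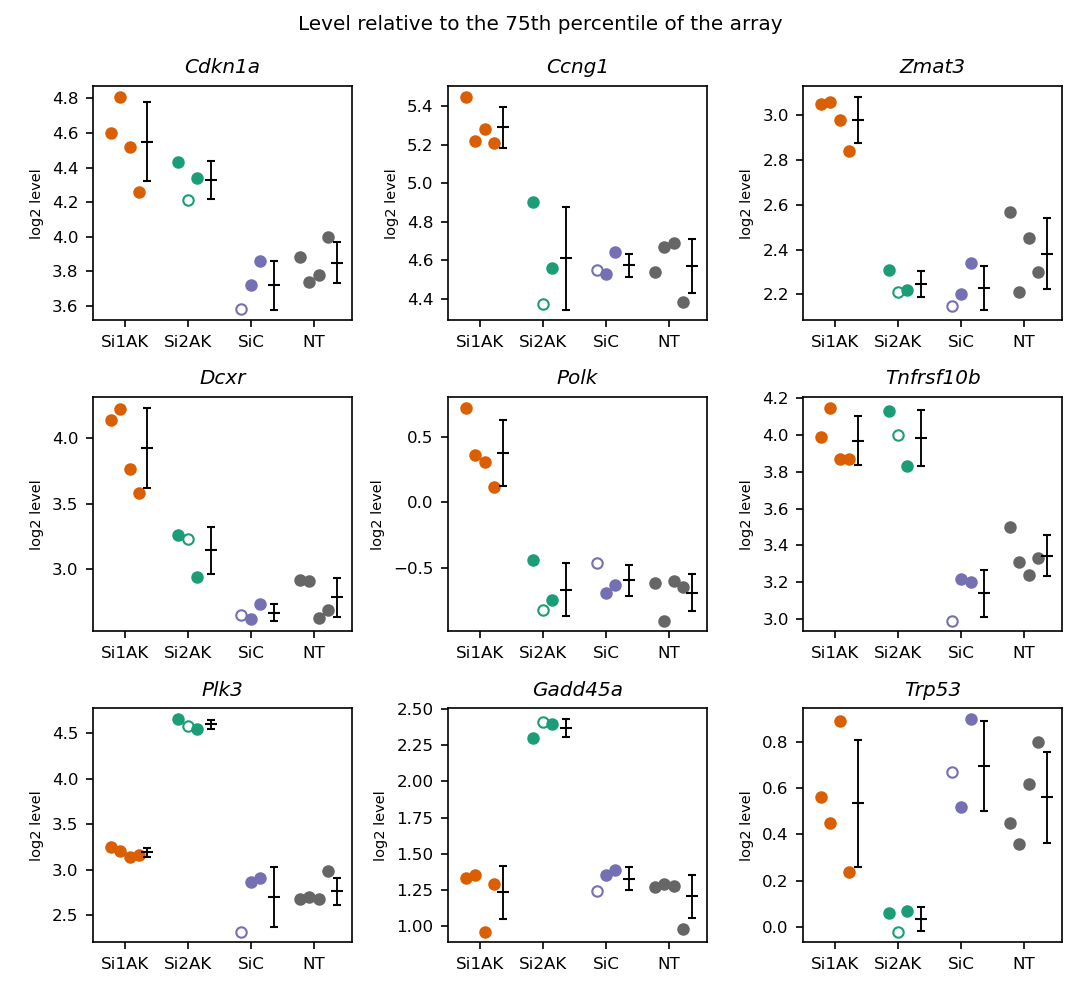
Log2 level relative to the array's 75th percentile (vertical axes, which differ between panels and do not start at 0) of 9 p53 target genes on each array, with groups from left to right Si1AK, Si2AK, SiC and NT. Points are arrays, open points are the arrays of raised signal, and bars give the mean ± SD of each group. Cdkn1a, Tnfrsf10b, Dcxr and Plk3 lie above the controls on all siRNA arrays. Zmat3 does so only on Si1AK arrays, and Ccng1 and Polk on all Si1AK arrays and Si2AK replicate 1. Gadd45a lies above them only on Si2AK arrays, and Trp53 is lowest on Si2AK arrays.

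Of 12 cell death genes, 3 were called higher with Si1AK (Tnfrsf10b, Ei24 and Fas) and 4 with Si2AK (Tnfrsf10b, Ei24, Bbc3 and Perp) against SiC, and none lower. Tnfrsf10b, the death receptor for the ligand TRAIL, was at 3.99, 4.15, 3.87 and 3.87 on the Si1AK arrays and 4.13, 4.0 and 3.83 on the Si2AK arrays, against 2.99, 3.22 and 3.20 on the SiC arrays and 3.50, 3.31, 3.24 and 3.33 on the NT arrays. Both siRNAs stood above both controls and overlapped each other. The differences from SiC were 0.83 ± 0.11 for Si1AK, or 1.78-fold (limma adjusted p = 0.00142), and 0.84 ± 0.11 for Si2AK, or 1.80-fold (limma adjusted p = 0.000766). From NT they were 0.63 ± 0.10 and 0.64 ± 0.11 (adjusted p = 0.00321 and 0.00187).

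Fas, the death receptor for Fas ligand, was at 2.33, 2.35, 1.91 and 2.00 on the Si1AK arrays and 1.51, 1.30 and 1.76 on the Si2AK arrays, against 1.08, 1.48 and 1.46 on the SiC arrays and 1.57, 1.26, 0.99 and 1.10 on the NT arrays. Si1AK arrays lay above all others. The Si1AK difference was 0.81 ± 0.17 from SiC (limma adjusted p = 0.0239) and 0.92 ± 0.16 from NT (limma adjusted p = 0.00557). The call against SiC was lost without SiC replicate 1 (0.68, adjusted p = 0.0789) and without Si1AK replicate 1 or 2, with values between 0.68 and 0.88 over the single arrays left out. Fas in Si2AK against Si1AK gave -0.62 ± 0.17 (adjusted p = 0.0369). Without both raised arrays that was -0.51 (adjusted p = 0.087). It was -0.93 on slide 1 and -0.20 on slide 2, and the call was also lost without Si1AK replicate 1 or 2, Si2AK replicate 1 or 2 or NT replicate 2.

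Ei24, a membrane protein of the endoplasmic reticulum, was at 1.72, 1.80, 1.57 and 1.47 on the Si1AK arrays and 1.53, 1.40 and 1.24 on the Si2AK arrays, against 0.65, 0.98 and 1.02 on the SiC arrays and 1.23, 1.46, 1.25 and 0.98 on the NT arrays. Si1AK lay above both controls, and Si2AK above SiC but not above NT. Its differences from SiC were 0.76 ± 0.13 for Si1AK (limma adjusted p = 0.00884) and 0.51 ± 0.14 for Si2AK (limma adjusted p = 0.0368). Without both raised arrays these were 0.64 (adjusted p = 0.0331) and 0.39 (adjusted p = 0.183). From NT neither passed, at 0.41 ± 0.12 and 0.16 ± 0.13 (adjusted p = 0.0721, or 0.0366 without SiC replicate 1, and 0.518), and SiC against NT gave -0.35 ± 0.13 (adjusted p = 0.636). The Si2AK call was lost in 8 of 14 fits that left out 1 array (Si1AK replicates 1 and 3, Si2AK 1 and 2, SiC 1 and 2, NT 1 and 3), with values between 0.39 and 0.58.

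Bbc3, the BH3-only protein Puma, was at 1.92, 1.98, 1.96 and 2.03 on the Si1AK arrays and 2.29, 2.16 and 2.46 on the Si2AK arrays, against 1.64, 1.86 and 2.02 on the SiC arrays and 1.52, 1.54, 1.75 and 1.77 on the NT arrays. Si2AK arrays lay highest. The Si2AK difference was 0.46 ± 0.12 from SiC (limma adjusted p = 0.0213) and 0.66 ± 0.11 from NT (limma adjusted p = 0.00177). Without SiC replicate 1 the difference from SiC was 0.36 (adjusted p = 0.0567), and its call was also lost without Si2AK replicate 1 or 3, with values up to 0.55. With Si1AK Bbc3 differed from SiC by 0.13 ± 0.11 (adjusted p = 0.505) and from NT by 0.33 ± 0.10 (adjusted p = 0.0768, but 0.0471 with the replicate number as a block, 0.0141 with the slide as a block and 0.0334 without SiC replicate 1).

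Perp, a desmosomal membrane protein that p53 uses in cell death, was at 7.74, 7.78, 7.56 and 7.81 on the Si1AK arrays and 8.01, 7.95 and 8.02 on the Si2AK arrays, against 7.34, 7.75 and 7.69 on the SiC arrays and 7.75, 7.91, 7.78 and 7.77 on the NT arrays. Si2AK arrays lay above all others by a small margin. The Si2AK difference was 0.40 ± 0.11 from SiC (limma adjusted p = 0.0339), 0.27 without SiC replicate 1 (adjusted p = 0.0708) and 0.19 ± 0.10 from NT (adjusted p = 0.284), where quantile normalization gave 0.33 (adjusted p = 0.0157). Its call was also lost without Si1AK replicate 1 or any Si2AK replicate, with values up to 0.47.

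The other 7 death genes were not called against SiC with either siRNA. Bax, the pore-forming effector of mitochondrial death, differed by 0.51 ± 0.24 with Si1AK and 0.05 ± 0.26 with Si2AK. Pmaip1, the BH3-only protein Noxa, differed by 0.57 ± 0.27 and 0.39 ± 0.29, and Trp53inp1, a stress-induced p53 partner, by 0.49 ± 0.32 and 0.10 ± 0.34. Without SiC replicate 1 the differences were 0.25 and 0.06 for Pmaip1 and 0.19 and -0.20 for Trp53inp1. With the slide as a block Pmaip1 was called with both siRNAs, at 0.67 and 0.57 (adjusted p = 0.0219 and 0.0292). Aen, an apoptosis-enhancing nuclease, differed by 0.36 ± 0.10 and 0.16 ± 0.10, Phlda3, a repressor of Akt, by 0.26 ± 0.10 and 0.27 ± 0.11, and Apaf1, the scaffold of the apoptosome, by 0.03 ± 0.16 and 0.06 ± 0.17. Si1AK arrays lay above all SiC arrays in Bax, Aen and Phlda3, and Aen passed with Si1AK without NT replicate 2 (adjusted p = 0.0388, against 0.0592). Eda2r, a receptor of the TNF family, was at -2.53, -3.11, -3.24 and -3.15 on the Si1AK arrays, against -4.11, -4.48, -4.39 and -4.30 on the NT arrays, a difference of 1.32 ± 0.34 (limma adjusted p = 0.0406). A second, dimmer Eda2r probe, well above background on 10 of 14 arrays, gave 0.30 ± 0.43 (adjusted p = 0.757), and the call was lost with the probes averaged. Against SiC it was 0.49 ± 0.37, where SiC replicate 1 stood at -2.35 and the other SiC arrays at -4.36 and -3.78. Without SiC replicate 1 that difference was 1.06 and passed (adjusted p = 0.0282), and without SiC replicate 2 it was 0.06. The Eda2r call against NT was lost when any single array other than SiC replicate 1 or 2 was left out, with differences between 1.16 and 1.40.

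Of the 5 DNA repair genes, Polk and Ercc5 were called higher with Si1AK and none with Si2AK against SiC. Polk, a polymerase that copies past damaged bases, was at 0.72, 0.36, 0.31 and 0.12 on the Si1AK arrays and -0.44, -0.82 and -0.74 on the Si2AK arrays, against -0.46, -0.69 and -0.63 on the SiC arrays and -0.61, -0.90, -0.60 and -0.64 on the NT arrays. All Si1AK arrays lay above 0 and all others below it. The differences from SiC were 0.97 ± 0.14 for Si1AK, or 1.96-fold (limma adjusted p = 0.0034), and -0.07 ± 0.15 for Si2AK (adjusted p = 0.868). Set against Si1AK, Si2AK gave -1.04 ± 0.14 (adjusted p = 0.000701).

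Ercc5, the endonuclease XPG of nucleotide excision repair, was at 1.05, 1.05, 0.86 and 0.73 on the Si1AK arrays and 0.51, 0.13 and 0.19 on the Si2AK arrays, against 0.32, 0.42 and 0.30 on the SiC arrays and 0.49, 0.40, 0.36 and 0.53 on the NT arrays. Si1AK arrays lay above all others here too. The differences from SiC were 0.57 ± 0.11 for Si1AK (limma adjusted p = 0.0131) and -0.07 ± 0.12 for Si2AK (adjusted p = 0.814), and Si2AK against Si1AK gave -0.64 ± 0.11 (adjusted p = 0.00253). With its probes averaged the Si1AK difference from SiC was 0.12, since a second, dim Ercc5 probe gave -0.34 ± 0.54.

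Ddb2, a damage sensor known as a p53 target in human cells, was at -1.77, -1.97, -1.86 and -1.88 on the Si1AK arrays, against -0.99, -1.59 and -1.49 on the SiC arrays and -1.31, -1.38, -1.37 and -1.63 on the NT arrays. Si1AK arrays lay below every control array, and the difference from SiC was -0.51 ± 0.15 (limma adjusted p = 0.0797). It was -0.33 without SiC replicate 1 (adjusted p = 0.202) and -0.54 with the slide as a block (adjusted p = 0.0362). Xpc, another damage sensor, differed from SiC by 0.01 ± 0.12 with Si1AK and 0.06 ± 0.13 with Si2AK. For Rrm2b, a ribonucleotide reductase subunit, these differences were 0.34 ± 0.35 and -0.29 ± 0.37.

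Of the 6 metabolic genes, Dcxr, Ephx1 and Ak1 were called higher with Si1AK and none with Si2AK against SiC. Dcxr, a reductase of xylulose and dicarbonyls, was at 4.14, 4.22, 3.76 and 3.58 on the Si1AK arrays and 3.26, 3.23 and 2.94 on the Si2AK arrays, against 2.65, 2.62 and 2.74 on the SiC arrays and 2.92, 2.91, 2.63 and 2.69 on the NT arrays. The groups were ordered without overlap, Si1AK first, Si2AK next and both controls below. Dcxr showed the largest Si1AK difference from SiC among the 37 genes, 1.25 ± 0.15 or 2.39-fold (limma adjusted p = 0.00118). With Si2AK it was 0.47 ± 0.16 (adjusted p = 0.0849), and 0.38 with the slide as a block (adjusted p = 0.0425). Dcxr in Si2AK against Si1AK gave -0.78 ± 0.15 (adjusted p = 0.00598).

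Ephx1, the microsomal epoxide hydrolase, was at 5.85, 6.04, 5.76 and 5.74 on the Si1AK arrays and 5.64, 5.58 and 5.42 on the Si2AK arrays, against 5.23, 5.44 and 5.42 on the SiC arrays and 5.56, 5.54, 5.50 and 5.54 on the NT arrays. Si1AK arrays lay above all others. The Si1AK difference was 0.48 ± 0.09 from SiC (limma adjusted p = 0.0129) and 0.31 ± 0.08 from NT (limma adjusted p = 0.0476). The call against NT was lost with any single array left out other than SiC replicate 1, with values between 0.25 and 0.35, and with the replicate number as a block (0.31, adjusted p = 0.0618). Si2AK differed from SiC by 0.18 ± 0.10 (adjusted p = 0.283).

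Ak1, adenylate kinase 1, was at 6.52, 6.68, 6.45 and 6.61 on the Si1AK arrays and 6.45, 6.39 and 6.41 on the Si2AK arrays, against 5.86, 6.29 and 6.19 on the SiC arrays and 6.08, 6.36, 6.12 and 6.38 on the NT arrays. Both siRNAs lay above both controls, narrowly so for Si2AK against NT. The Si1AK difference from SiC was 0.45 ± 0.11 (limma adjusted p = 0.0482), and 0.33 without SiC replicate 1 (adjusted p = 0.122). The Ak1 call was lost with any single array left out other than SiC replicate 2, with values between 0.33 and 0.54.

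Pltp, a phospholipid transfer protein, differed from SiC by 0.18 ± 0.09 with Si1AK and 0.20 ± 0.09 with Si2AK, and from NT by 0.29 ± 0.09 with Si2AK (limma adjusted p = 0.0465). That last call was lost without both raised arrays (0.26, adjusted p = 0.107) and with any single array left out other than Si1AK replicate 4, SiC replicate 1 or NT replicate 4, with values between 0.24 and 0.34. Slc19a2, a thiamine transporter, was at 4.22 to 4.33 on the Si1AK arrays, against 3.41 to 4.09 on the SiC arrays and 3.85 to 4.17 on the NT arrays, a difference of 0.40 ± 0.16 from SiC (adjusted p = 0.215), or 0.17 without SiC replicate 1. Sesn1, a sestrin that restrains growth signalling, differed from SiC by 0.08 ± 0.09 with Si1AK and -0.05 ± 0.09 with Si2AK. The other listed genes, the secreted stress factor Gdf15 and the ribosomal protein relative Rps27l, gave -0.16 ± 0.50 and 0.15 ± 0.13 with Si1AK and 0.12 ± 0.54 and -0.01 ± 0.14 with Si2AK. Gdf15 was at -2.68 on Si2AK replicate 2 and -2.22 on SiC replicate 1, the raised arrays, and between -4.85 and -3.46 on the others, and its Si1AK difference turned to 0.55 without SiC replicate 1.

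**Figure D3:**
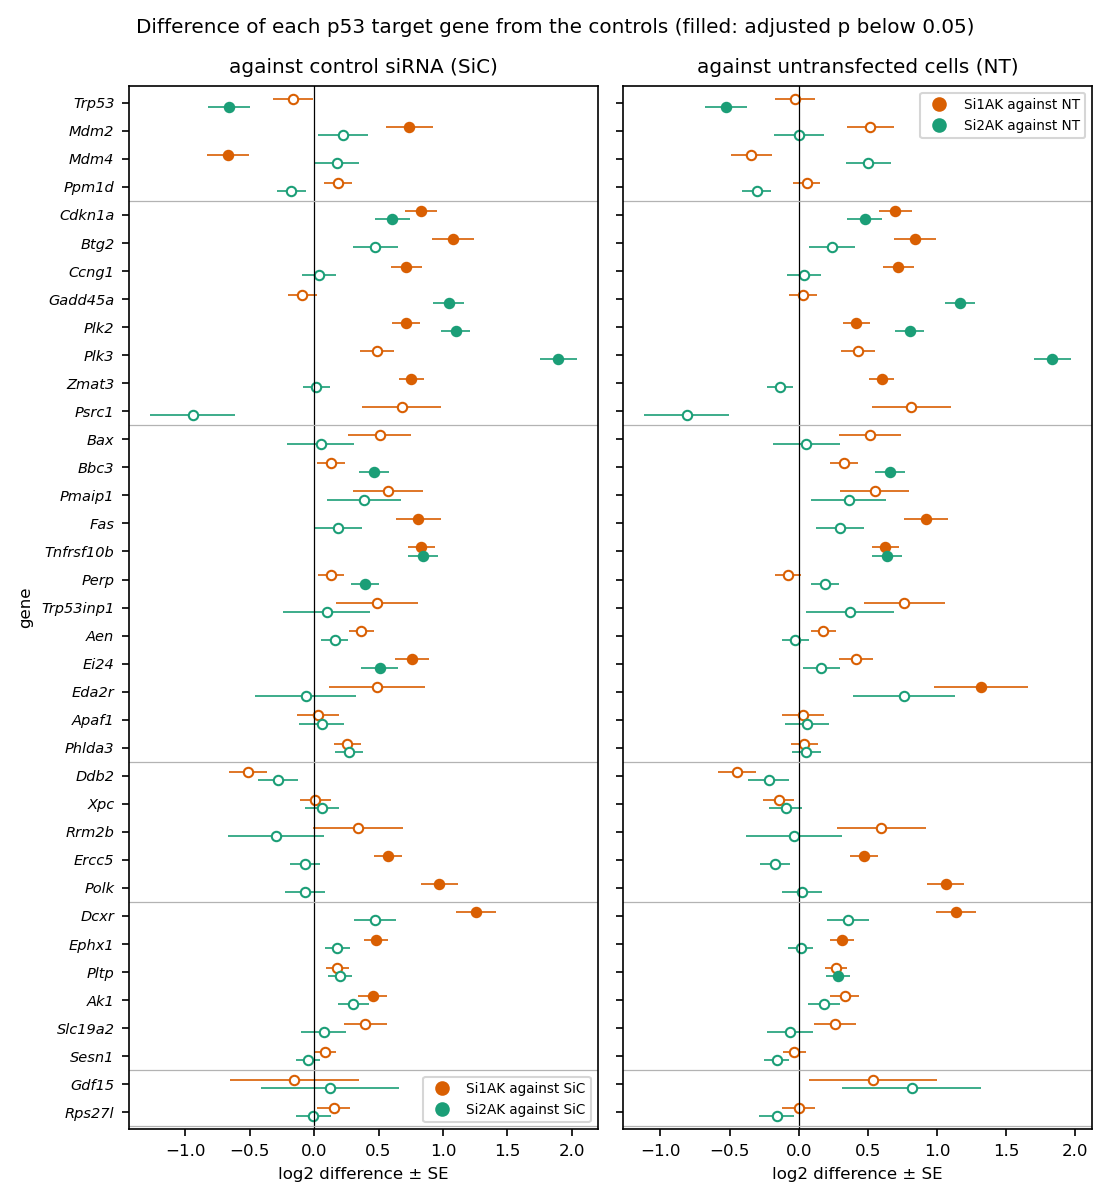
Log2 difference ± SE (horizontal axis) of each p53 target gene from control siRNA (left panel) and from untransfected cells (right panel), with Si1AK drawn above Si2AK in each row and filled points for adjusted p below 0.05. Dcxr with Si1AK (1.25) and Plk3 with Si2AK (1.89) lie farthest right in the left panel, and Psrc1 with Si2AK (-0.94) farthest left.

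The siRNAs differed from each other in 13 of 37 genes. With Si2AK against Si1AK 4 were called higher (Plk3, Gadd45a, Mdm4 and Plk2) and 9 lower (Psrc1, Polk, Dcxr, Zmat3, Ccng1, Ercc5, Fas, Btg2 and Ppm1d), where 6.32% of all genes were called higher and 6.15% lower (12.5% in either direction). The median difference was -0.22, beside 0.10 for all genes. Of the 8 arrest genes 3 were higher and 4 lower, of the 12 death genes 1 was lower, and of the 5 repair genes 2 were lower. One of the 6 metabolic genes, Dcxr, was lower. Without both raised arrays 12 genes were called, 11 of them among the 13, where 3199 of all 21316 genes were called. The calls of Plk3 and Psrc1 were kept in all 28 alternative fits. These include fits within single slides, where slide 2 has 1 Si2AK array that is assumed to vary like the other groups.

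**Figure D4:**
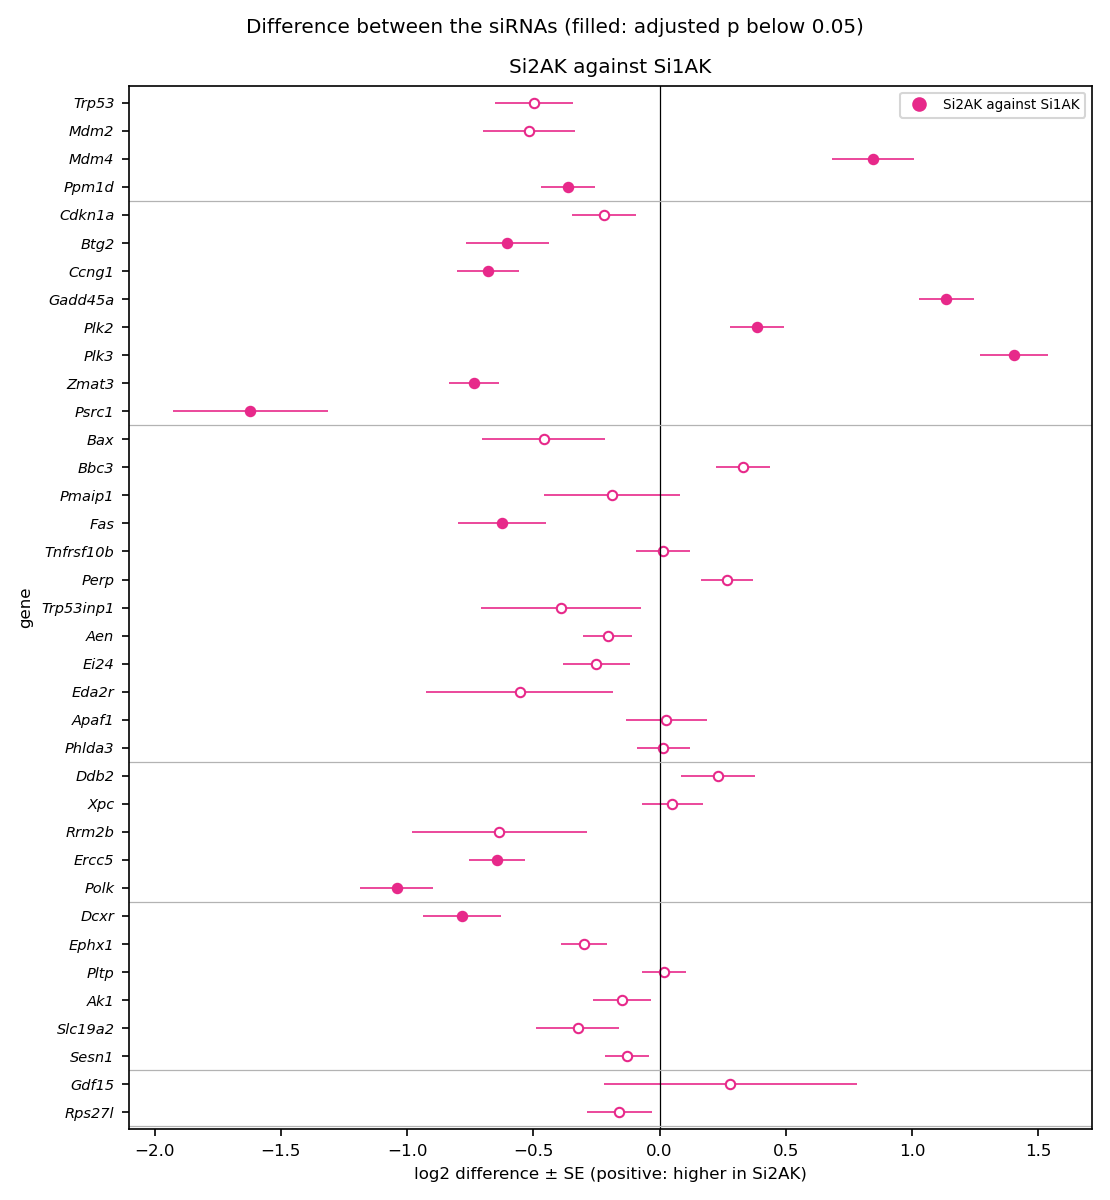
Log2 difference ± SE of Si2AK against Si1AK (horizontal axis, positive where Si2AK is higher) for each p53 target gene, with filled points for adjusted p below 0.05. Plk3 (1.41) and Gadd45a (1.14) lie farthest right and Psrc1 (-1.62) and Polk (-1.04) farthest left.

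Untransfected cells gave a second baseline. With Si1AK against NT 12 genes were called higher and none lower, where 4.03% of all genes were higher and 3.04% lower (7.07% in either direction), with a median difference of 0.42 beside -0.09 for all genes. With Si2AK against NT 7 were called higher and 1 lower, where 7.97% and 7.68% of all genes were (15.7% in either direction), with a median of 0.06 beside 0.02. The control siRNA against NT gave 0 called genes of the 37 by limma, and 0 among all 21316 (0.0%). Of the 37, 3 reached an unadjusted p below 0.05 there, Plk2 (-0.30 ± 0.11), Ei24 (-0.35 ± 0.13) and Eda2r (0.83 ± 0.37). Any effect of transfection itself is part of a difference from NT.

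Other probes of the same genes were tested one by one in a fit chosen after seeing the data. A second Dcxr probe gave 1.28 ± 0.15 for Si1AK against SiC (limma adjusted p = 0.00109) and a second Ephx1 probe 0.56 ± 0.10 (adjusted p = 0.0118). A second Polk probe gave 0.75 ± 0.25 (adjusted p = 0.135). In Si2AK against Si1AK these second probes gave -0.92 ± 0.15 for Dcxr (adjusted p = 0.00246) and -0.49 ± 0.10 for Ephx1 (adjusted p = 0.00977). For Polk the value was -0.75 ± 0.25 (adjusted p = 0.0833). The brightest Ephx1 probe gave -0.30 ± 0.09 there and was not called (adjusted p = 0.0539). The Cdkn1a probe for the transcript with the more upstream start, at 29227986 to 29228045 of chromosome 17 (mm9), was at 0.26, 0.24, -0.34 and -0.43 on the Si1AK arrays and -1.54, -0.31 and -2.07 on the Si2AK arrays, against -0.42, -2.24 and -2.36 on the SiC arrays and -1.63, -1.74, -2.45 and -2.18 on the NT arrays. There Si1AK overlapped SiC only through its raised replicate 1. The Si1AK difference was 1.61 ± 0.50 from SiC (adjusted p = 0.109) and 1.93 ± 0.46 from NT (adjusted p = 0.0299). The remaining Cdkn1a probe gave -0.27 ± 0.21 for Si2AK against SiC. In Si2AK against Si1AK it gave -0.75 ± 0.20 (adjusted p = 0.0312), and the upstream probe gave -1.24 ± 0.50 (adjusted p = 0.162).

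Among 19 tested regulators and partners of p53 outside the 37 genes, of 20 listed, none was called with Si1AK against SiC, and 3 were higher and 2 lower with Si2AK. Of all genes, 4.41% were called in either direction with Si1AK, and 8.52% higher and 4.69% lower with Si2AK. Lower with Si2AK were Atm, the kinase that signals DNA breaks (-0.62 ± 0.18, limma adjusted p = 0.0383), and Chek2, the checkpoint kinase that acts after it (-0.54 ± 0.15). Higher were, among others, Trp63, the p53 relative that maintains keratinocytes (0.58 ± 0.15), and Ppp1r13l, the p53 inhibitor iASPP (0.56 ± 0.10). Chek2 differed from SiC by -0.41 ± 0.14 with Si1AK (adjusted p = 0.126).

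Of 17 further p53 targets tested, of 18 listed, 1 was higher with Si1AK, and 6 were higher and 3 lower with Si2AK, against SiC. Of all genes, 3.18% were called higher with Si1AK, and 8.52% higher and 4.69% lower with Si2AK. Cyfip2, a partner of actin regulators, differed by 0.69 ± 0.17 with Si1AK (limma adjusted p = 0.0477) and 0.93 ± 0.19 with Si2AK (adjusted p = 0.00726). Sesn2, a stress-induced sestrin, differed by 0.34 ± 0.13 with Si1AK (adjusted p = 0.187) and 1.01 ± 0.14 with Si2AK (adjusted p = 0.000929). Sfn, the 14-3-3 sigma protein of keratinocytes that holds cells in G2, differed by 0.08 ± 0.11 (adjusted p = 0.71) and 0.88 ± 0.12 (adjusted p = 0.000861). Lif, a cytokine, differed by -0.42 ± 0.17 (adjusted p = 0.206) and 0.82 ± 0.18 (adjusted p = 0.0115). The 3 lower with Si2AK, named after their values were seen, were Pidd1 (on the array as Lrdd), which couples p53 to a caspase complex (-0.82 ± 0.13, adjusted p = 0.00237), Siva1, a death-promoting protein (-0.44 ± 0.13, adjusted p = 0.049), and Pcna, the sliding clamp of DNA polymerases (-0.51 ± 0.12, adjusted p = 0.0169). With Si1AK they differed by 0.23 ± 0.12, 0.37 ± 0.12 and -0.29 ± 0.11 and were not called.

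The 10 mitotic genes listed as lowered by p21 through the DREAM repressor complex gave negative differences from SiC with both siRNAs, with medians of -0.25 and -0.25, but few were called. Of all genes, 1.23% were called lower than SiC with Si1AK and 4.69% with Si2AK. With Si1AK 1 was lower, Cdc25c, a phosphatase that starts mitosis (-0.59 ± 0.12, limma adjusted p = 0.0156). With Si2AK 2 were lower, Cdc25c (-0.43 ± 0.12, adjusted p = 0.0417) and Foxm1, a factor for mitotic genes (-0.58 ± 0.12, adjusted p = 0.00787). Against NT 7 of 10 were called lower with each siRNA, with medians of -0.49 and -0.44. Of all genes, 3.04% were called lower with Si1AK and 7.68% with Si2AK there. SiC against NT had a median of -0.21 with 0 called. The raised SiC replicate 1 was the lowest SiC array in all 10 genes but Cdk1. It was at 4.19 in Ccnb1, beside 4.79 and 4.74, and at 5.63 in Cdc20, beside 6.04 and 6.05. In these genes it made differences from SiC less negative and that of SiC from NT more negative. Medians without it are not given here.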

How the data were processed

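Agilent Feature Extraction 10.7.3.1 read the images, with probes placed on mm9, per the file headers. Each spot has a processed intensity with background subtracted, per the file headers, and the marks for spots above background are 0 or 1. The table of values deposited by the authors is on a log2 scale (scale and direction checked against the scanner signals, background step not given in the sources used here), and limma was used per the submitters' processing notes. From the deposited intensity, log2 minus each array's 75th percentile over non-control spots was taken, uneven and outlying spots were left out, and spots of a probe were averaged. A probe was kept if each array of 1 or more groups marked it as well above background (30324 of 55681), and the brightest stood for its gene. Single values were missing in 312 genes, none of them among the values shown here. Limma 3.58.1 in R 4.3.3 fitted all 14 arrays (10 residual degrees of freedom), p-values were adjusted by Benjamini-Hochberg over 21316 genes, and the fit was tested on simulated data. No probe was saturated. Precision is limited by the number of arrays. Arrays were given one by one for Trp53, Mdm2, Cdkn1a and each gene called against SiC or between the siRNAs (22 genes). Other pathway genes were named where called against SiC, at most 4 a list. The genes, lists and tests were chosen with earlier results of these data known. Same-numbered arrays of Si1AK and NT deviated together weakly (4 pairs, correlations of 0.116 to 0.238, pairs on the same slide). Their differently numbered arrays on the same slide did so too. Those ran from 0.087 (Si1AK replicate 1 and NT replicate 2) to 0.305 (Si1AK replicate 3 and NT replicate 4). Pairing by number and a shared slide therefore cannot be told apart. Same-numbered arrays of SiC and NT gave 0.058 to 0.676 (3 pairs), and every other pair of groups held a negative correlation. Alternatives changed the scaling, background step, filter, probe rule, slide, replicate block, arrays in the fit and array weights.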

Additional observations from a re-analysis of the deposited data

Results flagged for a closer look

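In 8 of the 74 sets of 4 arrays checked (37 genes in Si1AK and NT), 1 array lay far from the other 3 by Dixon's criterion, which chance does in about 1 in 20 sets. In NT replicate 4, Mdm2 was at 5.09 (others 4.90 to 4.92), Plk3 at 2.99 (others 2.68 to 2.70) and Gadd45a at 0.98 (others 1.27 to 1.29). In NT replicate 2, Polk was at -0.90 (others -0.64 to -0.60) and Ppm1d at -0.09 (others -0.01 to 0.01). Trp53inp1 was at 0.93 in Si1AK replicate 2 (others 1.47 to 1.56), Xpc at 1.17 in Si1AK replicate 1 (others 1.30 to 1.31) and Gadd45a at 0.96 in Si1AK replicate 3 (others 1.29 to 1.35).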

How the results depend on the processing

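Counts are of the 37 genes called in either direction. Main counts were 15 (Si1AK against SiC), 9 (Si2AK against SiC), 13 (Si2AK against Si1AK), 12 (Si1AK against NT), 8 (Si2AK against NT) and 0 (SiC against NT). With slide 1 only they were 0, 2, 4, 0 and 2 in the first 5 comparisons, and with slide 2 only 0, 2, 3, 0 and 3, where limma gave 25 and 21 (Si1AK against SiC) and 23 and 19 (Si1AK against NT) at an unadjusted p below 0.05. With only the groups compared they were 5, 3, 11, 17 and 8, lower than the main count in the 2 comparisons with SiC and higher in Si1AK against NT. Of all 21316 genes, 251, 89, 2925, 2217 and 2391 were called there, beside 941, 2816, 2658, 1507 and 3336 in the main fit. With no filter on dim probes, 9 (Si1AK against SiC), 5 (Si2AK against SiC) and 5 (Si2AK against NT) were called. Of all 34836 genes in that fit, 400, 1527 and 2026 were called. Si1AK against NT gave 20 in the authors' deposited table, 20 without both raised arrays and 22 with array weights. Of all 21316 genes, 2004, 3116 and 3455 were called in these fits, beside 1507 in the main fit. Leaving out 1 array in turn gave 11 to 14, 4 to 9, 9 to 17, 8 to 19 and 5 to 12 in the first 5 comparisons. Over all genes those fits called 427 to 912, 1760 to 2805, 1749 to 3836, 811 to 2558 and 2289 to 4570. Fits of 1 slide hold fewer arrays, with 1 SiC array on slide 1 and 1 Si2AK array on slide 2. Their counts, by adjusted or unadjusted p, are given without the share of all genes and are no result about the 37 genes. The cause of the other shifts was not tested. Mdm4 with Si1AK against SiC turned to 0.17 under quantile normalization and 0.031 in the authors' table, the only called gene whose sign changed, and the cause was not tested. The median of all genes in Si1AK against SiC was -0.06, but 0.06 under quantile normalization. With the slide as a block 18, 12, 15, 18 and 10 were called, and every main call was among them. Of all genes, 1380, 3499, 3304, 2222 and 4056 were called in that fit. With the replicate block 11, 10, 10, 12 and 6 were called, beside 748, 2680, 2437, 1416 and 2840 of all genes. For Si1AK against NT, where same-numbered arrays also share a slide, the replicate block left the count at 12. Bbc3 (0.33) was gained and Ephx1 (0.31) lost there, and no other call changed. Without the raised arrays Si2AK against SiC kept Cdkn1a, Plk2, Plk3, Tnfrsf10b, Bbc3 and Gadd45a. The other alternatives kept each count within 1.5 times the main one.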
